A study of Homo sapiens with 12 samples.

Results

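The p53 target genes described here are 31 genes chosen by symbol as direct transcriptional targets of the tumour suppressor p53, out of 46427 genes in the deposited table. They were chosen with earlier results of these data known. All 31 were found by their symbol. Enough reads for testing were present for 30, against 16283 genes of the whole table. SPATA18, a p53 target linked to mitochondrial quality control, was not tested: it had 4 reads in siTRIP12 replicate 2 and 0 reads in the other 11 libraries.

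The libraries came from HT1080 cells, an established human fibrosarcoma line, after siRNA transfection. The groups were siTRIP12 (against the HECT-domain ubiquitin ligase TRIP12), siOTUD5 (against the deubiquitylase OTUD5), siTRIP12+siOTUD5 (the double knockdown) and Scrambled (a control siRNA with no intended target), with 3 libraries in each of the 4 groups. The number in the cell line label increases along the sample list, but the series design gives only HT1080, so HT1080 is assumed for every library. The labels do not give the siRNA sequences, amounts or times, and do not say whether replicates were separate cultures. If they were not, p-values measure technical spread alone. Library totals ran between 37912312 and 43881471 reads. VIM, a mesenchymal filament gene, averaged 3036 to 3604 CPM over the groups, while the epithelial genes KRT5 and KRT14 and the muscle regulator MYOD1 had no read in any library. THY1, another mesenchymal marker, was near 0 (at most 0.0472 CPM). Of the markers of other cell types, CLDN4, LYZ, PECAM1, CDH5, DES and ACTC1 passed the filter on low counts, at most at 2.59 CPM in any library (CLDN4 in Scrambled). CLDN4 and PECAM1 fell in all 3 knockdown groups against Scrambled, and LYZ fell in siOTUD5. Of PECAM1, CDH5, DES and ACTC1, 2 fell in the double knockdown. Of 8 tested mesenchymal markers 0 rose and 5 fell in siTRIP12, 1 rose and 1 fell in siOTUD5, and 1 rose and 5 fell in the double knockdown. Of all genes tested, 14.5%, 11.4% and 14.7% were called higher in these comparisons, and 17.4%, 11.9% and 16.2% lower. The part of these marker changes in the results below was not tested. Compared within groups, siTRIP12 replicate 1 and Scrambled replicate 3 stood apart: chi-square per degree of freedom was 26.0 and 26.1 for siTRIP12 replicate 1 against the other siTRIP12 libraries, which gave 10.8 between themselves, and 33.6 and 34.9 for Scrambled replicate 3, against 5.09 between the other Scrambled libraries.

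p53 is a DNA-binding transcription factor that is normally kept low by MDM2, a ubiquitin ligase that is itself a p53 target. When p53 accumulates, it raises genes that halt the cell cycle, promote death, repair DNA, adjust metabolism or switch p53 off again. Several p53 targets are also raised by other routes, among them SESN2, GDF15, TNFRSF10B, PMAIP1 and BBC3, which the stress factors ATF4 or CHOP can induce.

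p53 binds pairs of a 10-base repeat, called here the p53 decamer. The RefSeq promoter windows (GRCh38.p14) ran from 250 bases before to 50 bases after a transcript start of the gene. Of the 31 genes, 25 had an entry. Of those 25, 3 held at least 1 p53 decamer on either strand, against 2329 of 35116 windows in all (6.63%). None of the 25 held 2 decamers within a spacer of 13 bases, which 10 of 35116 windows did. Only 1 window was used per member, while every listed window entered the count over all. The members' windows held a median of 28 CpG dinucleotides, against 14 in all windows, so the 2 sets differ in composition. The decamers lay in the promoters of PLK2, AEN and FDXR. Those of AEN and FDXR were identical in sequence. The 150 bases before the start used for each of these 3 windows are shown because they hold the only decamers in the members' windows, and capitals mark the decamer. The window of AEN precedes an internal transcript start, since the gene's annotated span runs from 88604683 to 88632281. Those of CDKN1A, BBC3, FAS and ZMAT3 also lay at starts inside the annotated span.
AEN (chr15:88621190-88621339, plus strand): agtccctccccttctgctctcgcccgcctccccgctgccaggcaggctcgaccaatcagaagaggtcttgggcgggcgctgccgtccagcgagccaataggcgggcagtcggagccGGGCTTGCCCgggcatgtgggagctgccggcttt
FDXR (chr17:74872995-74873144, minus strand): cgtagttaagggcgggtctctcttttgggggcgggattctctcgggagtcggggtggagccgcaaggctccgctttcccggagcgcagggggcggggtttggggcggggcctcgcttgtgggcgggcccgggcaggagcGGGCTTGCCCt
PLK2 (chr5:58460087-58460236, minus strand): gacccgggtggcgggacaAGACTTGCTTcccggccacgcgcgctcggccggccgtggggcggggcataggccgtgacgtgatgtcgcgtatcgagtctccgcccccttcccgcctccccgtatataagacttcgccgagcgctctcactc
The 3 genes differed in their changes, as given below. Neither these matches nor their absence elsewhere shows where p53 was bound, since many known p53 sites lie outside such windows. GADD45A, TNFRSF10B, TP53INP1, PHLDA3, RRM2B and CMBL were without a window. The motif TGATGNAA (or its reverse complement TTNCATCA), which ATF4 dimers can bind, was in the window of PLK3 alone among the 25 (4.0%), against 1270 of 35116 (3.62%).

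TRIP12 mRNA was at 38.9, 46.2 and 40.2 CPM in siTRIP12, 314, 315 and 317 CPM in siOTUD5, 54.4, 50.1 and 55.0 CPM in the double knockdown, and 346, 342 and 276 CPM in Scrambled. CPM is the read count divided by the library's TMM-adjusted total, so that libraries of different depth can be compared. OTUD5 mRNA was at 73.5, 73.9 and 74.0 CPM in siTRIP12, 10.6, 10.8 and 11.97 CPM in siOTUD5, 10.8, 12.3 and 9.62 CPM in the double knockdown, and 60.4, 58.5 and 60.5 CPM in Scrambled. Both targets were low where labelled, with log2 changes of -2.94 ± 0.08 and -2.60 ± 0.08 for TRIP12 in siTRIP12 and the double knockdown, and of -2.43 ± 0.08 and -2.46 ± 0.08 for OTUD5 in siOTUD5 and the double knockdown. OTUD5 rose in siTRIP12 (0.30 ± 0.07, adjusted p = 0.00346). TRIP12 was less depleted in the double knockdown than in siTRIP12 (log2 0.35 ± 0.08, SE; adjusted p = 0.0079), a gap whose part in the results below was not tested.

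Between genes, levels were compared as TPM, which corrects for transcript length. In Scrambled the most abundant members were the death receptor gene TNFRSF10B at 345 ± 43.7 TPM and the pore-forming BCL2-family gene BAX at 315 ± 11.5 TPM (mean ± SD, n = 3), which overlapped between libraries, followed by the stress cytokine gene GDF15 at 236 ± 12.02 TPM. The lowest tested members were TIGAR at 11.7 ± 0.257 TPM and TP53INP1 at 5.34 ± 0.584 TPM.

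With OTUD5 knocked down alone, most p53 targets were higher than in Scrambled. Of the 30 tested, 20 rose, 1 fell and 9 were not called at an adjusted p under 0.05, while over all genes tested 23.2% were called, 11.4% higher and 11.9% lower. The members' median log2 change was 0.27, against -0.01 over all genes tested. With TRIP12 knocked down alone, 10 rose, 6 fell and 14 were not called (of all genes tested 31.9% were called, 14.5% higher and 17.4% lower), and the members' median was 0.08 against 0.01. In the double knockdown 16 rose, 1 fell and 13 were not called (of all genes tested 30.9%, with 14.7% higher and 16.2% lower), with a median of 0.24 against 0.00. These 3 comparisons share the Scrambled libraries. Since the members were chosen with earlier results of these data known, their shares are not those of a list fixed beforehand. Scrambled replicate 3 was the highest of the 3 Scrambled libraries in 17 of the 30 members and the lowest in 9. Its members' median deviation from the group mean was 0.04 on the log2 scale. Leaving out any 1 of the 12 libraries gave 17 to 22 rises in siOTUD5, 8 to 10 in siTRIP12 and 15 to 17 in the double knockdown. The falls in siTRIP12 numbered 3 without siTRIP12 replicate 1 or replicate 2. Falls in the double knockdown numbered 4 without Scrambled replicate 2 (PMAIP1 with FAS, TP53I3 and SESN1) and 2 without double knockdown replicate 2 (PMAIP1 with TP53I3). The shares of all genes with a library left out are not given here. The shares above come from the fit to all libraries and are no background for these counts.

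**Figure D1:**
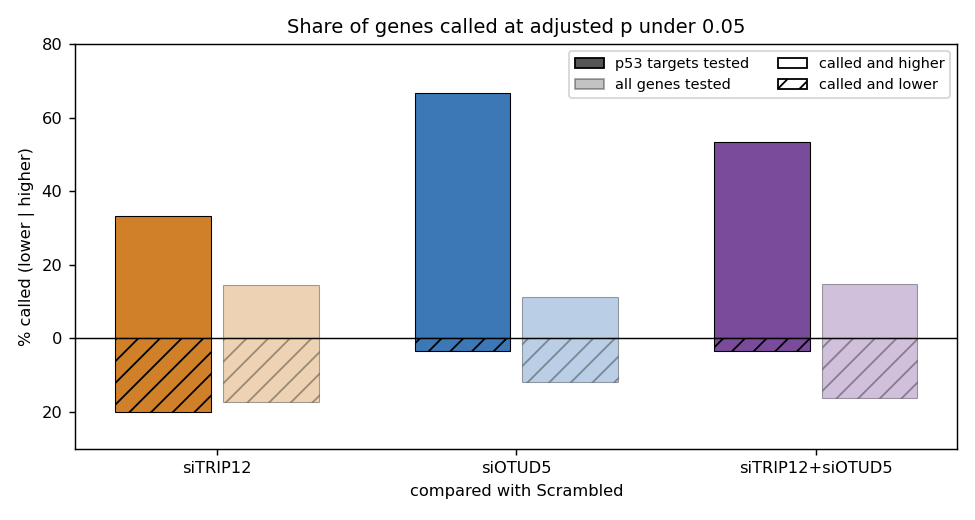
Share of genes called at an adjusted p under 0.05 against Scrambled, in percent of genes tested, for the 30 p53 targets (solid) and for all 16283 genes (pale); plain bars above 0 are genes called higher and hatched bars below 0 genes called lower. Rises among p53 targets stand furthest above the background in siOTUD5 (20 of 30) and falls were most frequent in siTRIP12 (6 of 30).

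Gene by gene, the single knockdowns gave several patterns. How often all genes tested showed each pattern was not counted, so the counts below have no background beside them. Of the 30, 8 rose in both single knockdowns (CDKN1A, PLK2, PLK3, BBC3, MDM2, SESN2, GDF15 and CMBL), and these 8 also rose in the double knockdown. Another 4 fell in siTRIP12 and rose in siOTUD5 (BTG2, PHLDA3, DDB2 and FDXR), and 1, SESN1, did the opposite. 6 members were called in none of the 3 comparisons (BAX, FAS, POLH, CCNG1, TIGAR and TRIAP1). FAS had log2 changes of -0.20, -0.11 and -0.20 in siTRIP12, siOTUD5 and the double knockdown, and the other 5 lay between -0.16 and 0.12.

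**Figure D2:**
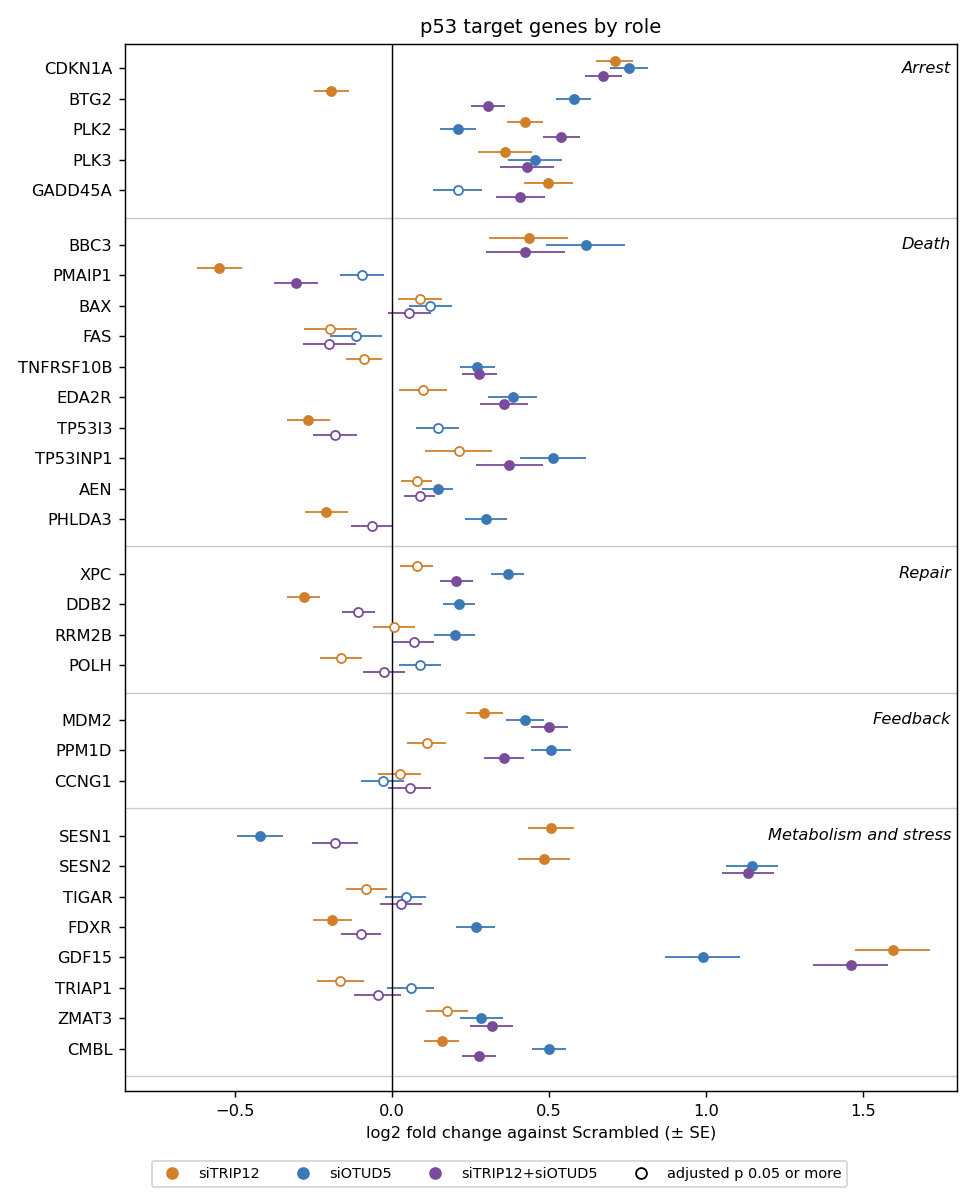
Log2 fold change against Scrambled (points, bars ± SE) of the 30 tested p53 targets in siTRIP12, siOTUD5 and the double knockdown (3 libraries a group), grouped by role; open points have an adjusted p of 0.05 or more. The arrest genes lie right of 0 except BTG2 in siTRIP12, while death and repair genes in siTRIP12 scatter around 0.

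Of the 5 arrest genes, all 5 rose in the double knockdown, 4 rose in siOTUD5, and in siTRIP12 4 rose and 1 fell, with siTRIP12 changes between -0.19 and 0.71. Their median log2 change was 0.42 in siTRIP12, 0.45 in siOTUD5 and 0.43 in the double knockdown. In the same order, 14.5%, 11.4% and 14.7% of all genes tested were called higher, and 17.4%, 11.9% and 16.2% lower. CDKN1A encodes p21, the inhibitor of cyclin-dependent kinases (NCBI gene 1026, GRCh38 chromosome 6, 36676463 to 36687332). It was at 169, 180 and 197 CPM in siTRIP12, 187, 189 and 187 CPM in siOTUD5, 170, 192 and 172 CPM in the double knockdown, and 113, 112 and 109 CPM in Scrambled. All 9 knockdown libraries lay above all 3 Scrambled libraries, and the 3 knockdown groups overlapped one another. Its rises were 0.71 ± 0.06, 0.75 ± 0.06 and 0.67 ± 0.06 in the same order of knockdown groups (adjusted p = 9.1e-08, 1.0e-07 and 2.9e-07).

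BTG2, an antiproliferative cofactor of mRNA decay (chromosome 1, 203305519 to 203309602), was at 41.6, 42.4 and 43.9 CPM in siTRIP12, 70.2, 76.3 and 71.8 CPM in siOTUD5, 62.1, 59.2 and 59.3 CPM in the double knockdown, and 48.4, 50.2 and 47.6 CPM in Scrambled. No 2 of the 4 groups overlapped. It rose by 0.58 ± 0.06 in siOTUD5 (adjusted p = 1.1e-06) and by 0.31 ± 0.06 in the double knockdown (adjusted p = 4.5e-04). Its fall in siTRIP12 was -0.19 ± 0.06 (adjusted p = 0.013), and was not called without siTRIP12 replicate 1 (adjusted p = 0.064) or replicate 2 (0.053), nor with upper-quartile scaling.

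PLK2, a polo-like kinase of the stress response, was at 86.3, 89.4 and 79.0 CPM in siTRIP12, 75.1, 74.4 and 70.3 CPM in siOTUD5, 89.9, 89.1 and 97.3 CPM in the double knockdown, and 63.3, 62.8 and 64.0 CPM in Scrambled. It rose in all 3 comparisons, most in the double knockdown (0.54 ± 0.06, adjusted p = 2.6e-06). The siOTUD5 rise of 0.21 ± 0.06 (adjusted p = 0.014) was not called without siOTUD5 replicate 1 (0.0652) or replicate 2 (0.0557). PLK3, its relative, rose by 0.36 ± 0.09, 0.45 ± 0.09 and 0.43 ± 0.09 in siTRIP12, siOTUD5 and the double knockdown. GADD45A, which has roles in arrest and repair, averaged 72.5 ± 2.86, 59.4 ± 2.06 and 68.2 ± 4.62 CPM in those groups and 51.4 ± 6.81 CPM in Scrambled (SD, n = 3). It rose by 0.50 ± 0.08 in siTRIP12 and 0.41 ± 0.08 in the double knockdown, and its siOTUD5 change of 0.21 ± 0.08 (adjusted p = 0.0626) was called without Scrambled replicate 3 (6.3e-04).

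**Figure D3:**
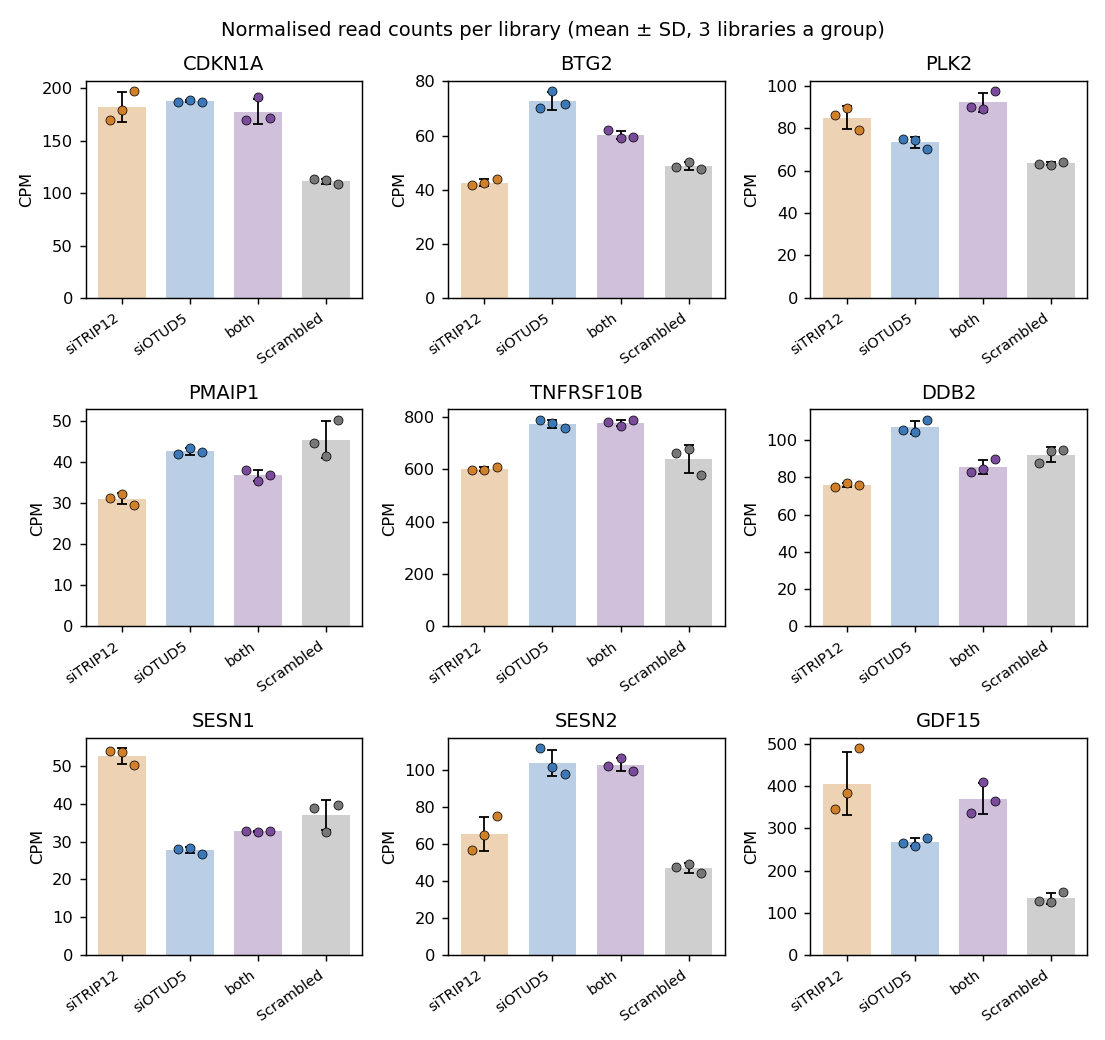
Normalised read counts (CPM, linear axes from 0) of 9 p53 targets in siTRIP12, siOTUD5, both siRNAs and Scrambled; points are libraries, bars the mean and error bars the SD of 3 libraries. CDKN1A reaches about the same level in all 3 knockdown groups, while BTG2, DDB2 and SESN1 differ in direction between siTRIP12 and siOTUD5.

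Of the 10 death genes, 6 rose and 0 fell in siOTUD5, and 1 rose and 3 fell in siTRIP12. In the double knockdown 4 rose and 1 fell. The median log2 changes were 0.21, -0.0049 and 0.07 in that order. In the same order, 11.4%, 14.5% and 14.7% of all genes tested were called higher, and 11.9%, 17.4% and 16.2% lower. With 10 genes, the siTRIP12 counts of 1 and 3 are not far from these shares. BBC3, which encodes the BH3-only protein PUMA, was at 41.0, 48.4 and 56.3 CPM in siTRIP12, 59.2, 51.5 and 54.3 CPM in siOTUD5, 46.1, 57.0 and 41.6 CPM in the double knockdown, and 32.5, 35.4 and 39.8 CPM in Scrambled. All 9 knockdown libraries lay above Scrambled. It rose by 0.44 ± 0.13, 0.62 ± 0.13 and 0.43 ± 0.13 (adjusted p = 0.018, 0.0034 and 0.021). The siTRIP12 call was lost without Scrambled replicate 1 (0.0643), Scrambled replicate 2 (0.0612) or siTRIP12 replicate 3 (0.0765), and the double knockdown call without Scrambled replicate 1 (0.0728), Scrambled replicate 2 (0.0674) or double knockdown replicate 2 (0.0845).

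PMAIP1, which encodes the BH3-only protein NOXA, went the other way. It was at 31.3, 32.4 and 29.6 CPM in siTRIP12, 42.0, 43.5 and 42.4 CPM in siOTUD5, 38.2, 35.5 and 36.9 CPM in the double knockdown, and 44.7, 41.6 and 50.3 CPM in Scrambled. The siTRIP12 and double knockdown libraries lay below all Scrambled libraries, and those of siOTUD5 overlapped them. It fell by 0.55 on the log2 scale in siTRIP12 (SE 0.07, adjusted p = 1.5e-05) and by 0.31 in the double knockdown (SE 0.07, adjusted p = 0.0032).

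Among death receptors, TNFRSF10B, the TRAIL receptor DR5, was at 597, 598 and 610 CPM in siTRIP12, 787, 775 and 756 CPM in siOTUD5, 779, 764 and 786 CPM in the double knockdown, and 664, 678 and 579 CPM in Scrambled. It rose in siOTUD5 (0.27 ± 0.06, adjusted p = 0.0021) and in the double knockdown (0.28 ± 0.06, adjusted p = 0.0011). Its siTRIP12 change was -0.09 ± 0.06 (adjusted p = 0.25), and without Scrambled replicate 3, the lowest Scrambled library, it was called lower (0.00546). EDA2R, a receptor of the TNF receptor family, rose by 0.38 ± 0.08 in siOTUD5 and 0.36 ± 0.08 in the double knockdown. FAS, the CD95 receptor gene, was called in none of the 3 comparisons with all libraries, but was called lower in siTRIP12 (0.0326) and in the double knockdown (0.031) without Scrambled replicate 2.

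TP53INP1, a p53-activating nuclear protein, rose in siOTUD5 (0.51 ± 0.11, adjusted p = 0.0020) and in the double knockdown (0.37 ± 0.11, adjusted p = 0.012, not called without double knockdown replicate 3 at 0.0545). PHLDA3, which restrains the kinase AKT, averaged 76.6 ± 4.21 CPM in siTRIP12, 109 ± 2.88 CPM in siOTUD5, 84.7 ± 9.32 CPM in the double knockdown and 88.4 ± 1.86 CPM in Scrambled (SD, n = 3). In the GENCODE annotation 22.2% of its exonic bases also belong to another gene on the same strand, which counting by strand cannot separate. PHLDA3 rose in siOTUD5 (0.30 ± 0.07, adjusted p = 0.0036). Its fall in siTRIP12 (-0.21 ± 0.07, adjusted p = 0.025) was not called without Scrambled replicate 1 (0.0917), siTRIP12 replicate 1 (0.0761) or siTRIP12 replicate 2 (0.139), or with upper-quartile scaling. TP53I3, a quinone oxidoreductase, fell in siTRIP12 (-0.27 ± 0.07, adjusted p = 0.0067). The nuclease gene AEN, whose promoter decamer is shown above, was barely past the threshold in siOTUD5 (0.15 ± 0.05, adjusted p = 0.040), and that call was lost on leaving out any of 8 of the 12 libraries (highest adjusted p = 0.124). BAX had log2 changes of 0.09, 0.12 and 0.06 in siTRIP12, siOTUD5 and the double knockdown, and its siOTUD5 change was called higher without Scrambled replicate 3 (0.0289).

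Of the 4 repair genes, 3 rose in siOTUD5, 1 fell in siTRIP12 and 1 rose in the double knockdown (medians 0.21, -0.08 and 0.02). The matching shares of all genes tested were 11.4% higher, 17.4% lower and 14.7% higher. A count of 1 in 4 genes is not far from such shares. DDB2, which recognises UV damage in DNA (chromosome 11, 47214454 to 47239217), was at 74.8, 77.2 and 75.8 CPM in siTRIP12, 105, 104 and 111 CPM in siOTUD5, 82.8, 84.3 and 89.6 CPM in the double knockdown, and 87.5, 94.3 and 94.7 CPM in Scrambled. siTRIP12 lay below and siOTUD5 above all Scrambled libraries, with changes of -0.28 ± 0.05 (adjusted p = 5.7e-04) and 0.21 ± 0.05 (adjusted p = 0.0066). XPC, its partner in damage recognition, rose by 0.37 ± 0.05 in siOTUD5 (adjusted p = 8.0e-05) and by 0.20 ± 0.05 in the double knockdown. In the GENCODE annotation, exons of genes on the opposite strand cover parts of XPC (up to 16.6% of its exonic bases for 1 gene), and whether the authors counted by strand is not stated in the sources used here. RRM2B, a ribonucleotide reductase subunit, rose in siOTUD5 (0.20 ± 0.07, adjusted p = 0.034). That call was lost without Scrambled replicate 1 (0.0691), Scrambled replicate 2 (0.0932), siOTUD5 replicate 1 (0.127) or siOTUD5 replicate 3 (0.09). The translesion polymerase gene POLH was not called in any of the 3, but was called lower in siTRIP12 without Scrambled replicate 3 (0.00116).

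Of 3 feedback genes, which restrain p53, 1 rose in siTRIP12, 2 in siOTUD5 and 2 in the double knockdown, and 0 fell (medians 0.11, 0.42 and 0.36). The shares of all genes tested called higher were 14.5%, 11.4% and 14.7%, and called lower 17.4%, 11.9% and 16.2%. MDM2 (chromosome 12, 68808172 to 68850686) was at 326, 342 and 308 CPM in siTRIP12, 337, 354 and 377 CPM in siOTUD5, 376, 362 and 389 CPM in the double knockdown, and 260, 251 and 285 CPM in Scrambled. All 9 knockdown libraries lay above Scrambled, with rises of 0.29 ± 0.06, 0.42 ± 0.06 and 0.50 ± 0.06 (adjusted p = 0.0011, 7.7e-05 and 8.6e-06). PPM1D, the phosphatase WIP1, rose by 0.51 ± 0.06 in siOTUD5 and 0.36 ± 0.06 in the double knockdown. CCNG1, which encodes cyclin G1, had changes of 0.02, -0.03 and 0.06, the last of which was called without Scrambled replicate 3 (0.0214).

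Among 8 tested genes of metabolism and stress, 4 rose and 1 fell in siTRIP12, 5 rose and 1 fell in siOTUD5, and 4 rose and 0 fell in the double knockdown (medians 0.17, 0.28 and 0.15). Over all genes tested 14.5%, 11.4% and 14.7% were called higher, and 17.4%, 11.9% and 16.2% lower. The 2 sestrins, stress-inducible regulators of mTORC1 signalling, differed in direction in siOTUD5. SESN2 (chromosome 1, 28259518 to 28282491) was at 56.9, 65.1 and 75.2 CPM in siTRIP12, 112, 102 and 98.0 CPM in siOTUD5, 103, 107 and 99.9 CPM in the double knockdown, and 47.5, 49.3 and 44.1 CPM in Scrambled. All 9 knockdown libraries lay above Scrambled, and siOTUD5 and the double knockdown overlapped. It rose by 0.48 ± 0.08, 1.15 ± 0.08 and 1.13 ± 0.08 (adjusted p = 2.9e-04, 4.7e-08 and 4.2e-08). SESN1 (chromosome 6, 108984309 to 109094846) was at 53.9, 53.7 and 50.3 CPM in siTRIP12, 28.0, 28.4 and 26.8 CPM in siOTUD5, 32.8, 32.7 and 32.7 CPM in the double knockdown, and 38.9, 32.5 and 39.8 CPM in Scrambled. siTRIP12 lay above and siOTUD5 below all Scrambled libraries. It rose in siTRIP12 (0.51 ± 0.07, adjusted p = 4.0e-05) and fell in siOTUD5 (-0.42 ± 0.07, adjusted p = 5.5e-04), and it was the 1 member to fall there. In the double knockdown its change was -0.18 ± 0.07 (adjusted p = 0.071), and was called lower without Scrambled replicate 2 (0.0053).

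GDF15 (chromosome 19, 18386158 to 18389176) gave the largest rise of the 30 in siTRIP12. It was at 345, 384 and 490 CPM in siTRIP12, 265, 258 and 277 CPM in siOTUD5, 336, 409 and 365 CPM in the double knockdown, and 128, 126 and 150 CPM in Scrambled. All 9 knockdown libraries lay above Scrambled, with siOTUD5 below the other knockdowns. The rises were 1.59 ± 0.12, 0.99 ± 0.12 and 1.46 ± 0.12 (adjusted p = 1.0e-06, 1.1e-04 and 3.4e-06). FDXR, an electron-transfer enzyme of mitochondria whose promoter decamer equals that of AEN, was at 66.0, 67.3 and 66.5 CPM in siTRIP12, 87.0, 88.5 and 98.5 CPM in siOTUD5, 70.7, 71.6 and 70.4 CPM in the double knockdown, and 70.4, 74.6 and 82.8 CPM in Scrambled. It rose in siOTUD5 (0.27 ± 0.06, adjusted p = 0.0049). Its fall in siTRIP12 (-0.19 ± 0.06, adjusted p = 0.028) was not called without Scrambled replicate 3 (0.092) or without any of siTRIP12 replicates 1, 2 and 3 (0.0865, 0.0707 and 0.0656), nor with upper-quartile scaling.

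CMBL, a hydrolase gene, rose by 0.16 ± 0.05, 0.50 ± 0.05 and 0.28 ± 0.05. The siTRIP12 call was lost without Scrambled replicate 2 (0.13), siTRIP12 replicate 1 (0.088) or siTRIP12 replicate 2 (0.0555). ZMAT3, an RNA-binding splicing regulator, rose in siOTUD5 (0.28 ± 0.07) and in the double knockdown (0.32 ± 0.07). Its siTRIP12 change of 0.18 ± 0.07 (adjusted p = 0.0562) was called without Scrambled replicate 1 (0.00769). TIGAR, a regulator of glycolysis, had changes of -0.08, 0.04 and 0.03, with the limit that 45.3% of its exonic bases are also annotated to another gene on the same strand. TRIAP1, an apoptosis inhibitor, had changes of -0.16, 0.06 and -0.05, and its siOTUD5 value was called higher without Scrambled replicate 3 (0.0308).

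Each knockdown was also read where the other gene was already low, from groups that share no library with the first comparison. Adding siTRIP12 to siOTUD5 cells was measured as the double knockdown against siOTUD5. There 2 members rose and 6 fell (of all genes tested 8.41% were called, 3.35% higher and 5.07% lower), with a median of -0.08 against 0.01 over all genes tested. Of the 6 members that fell in siTRIP12 against Scrambled, all 6 had a negative change here and 5 were called (BTG2, DDB2, FDXR, PHLDA3 and TP53I3). Of all 2827 genes that fell in the first comparison, 81.3% had a negative change in the second and 20.9% were called lower. The falls were -0.27 ± 0.05 for BTG2, -0.32 ± 0.05 for DDB2, -0.37 ± 0.06 for FDXR, -0.36 ± 0.07 for PHLDA3 and -0.33 ± 0.07 for TP53I3 (adjusted p from 9.23e-04 to 0.00605). PMAIP1 was at -0.21 ± 0.07 (adjusted p = 0.077). Of the 10 members that rose in siTRIP12, 5 had a positive change here, against 79.6% of all genes that rose there. Of the same 10, 2 were called higher again (PLK2 at 0.33 ± 0.06 and GDF15 at 0.47 ± 0.12), while CMBL was called lower (-0.22 ± 0.05). Of all 2367 genes that rose in the first comparison, 14.9% were called higher in the second. The GDF15 call (adjusted p = 0.028) was lost without any of the 3 siOTUD5 libraries or without double knockdown replicate 2 or 3 (highest 0.0927). That of CMBL (adjusted p = 0.016) was lost without siOTUD5 replicate 3 (0.1) or double knockdown replicate 1 (0.0916) or 2 (0.0519). The rises numbered 4 without Scrambled replicate 3 and 1 without any single siOTUD5 library or without double knockdown replicate 2 or 3. Shares of all genes with these libraries left out are not given here.

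Adding siOTUD5 to siTRIP12 cells, measured as the double knockdown against siTRIP12, raised 8 members and lowered 1 (of all genes tested 15.7% were called, 8.78% higher and 6.93% lower), with a median of 0.12 against 0.00. Of the 20 members that rose in siOTUD5 against Scrambled, 17 had a positive change here and 7 were called higher. Of all 1849 genes that rose in the first comparison, 77.2% had a positive change in the second and 27.9% were called higher, so the members' share with the same sign was near that of all genes. These 7 were SESN2 (0.65 ± 0.08, adjusted p = 4.6e-05), BTG2 (0.50 ± 0.06, adjusted p = 1.1e-05), TNFRSF10B (0.37 ± 0.06, adjusted p = 2.4e-04), EDA2R (0.26 ± 0.08), PPM1D (0.25 ± 0.06), MDM2 (0.21 ± 0.06) and DDB2 (0.17 ± 0.05). SESN1 fell again, by 0.69 on the log2 scale (SE 0.07, adjusted p = 6.4e-06). PMAIP1, which was not called in siOTUD5 against Scrambled, also rose (0.24 ± 0.07, adjusted p = 0.026). CDKN1A, which rose with siOTUD5 in Scrambled cells, was at -0.04 ± 0.06 here (adjusted p = 0.74), and GDF15 at -0.13 ± 0.12 (adjusted p = 0.50). The count of rises was 3 or 4 without siTRIP12 replicate 1 or 3 or double knockdown replicate 1 or 3, and the calls of PMAIP1, EDA2R, PPM1D, MDM2 and DDB2 were each lost without at least 1 library (highest adjusted p = 0.154). Those of SESN2, BTG2, TNFRSF10B and SESN1 held without any 1 library. No share of all genes stands beside the counts with a library left out.

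Additivity was tested gene by gene as the change in the double knockdown minus the sum of both single changes on the log2 scale, which is 0 if the changes add. Of the 30 members, 23 had a value below 0 and 7 above it, with a median of -0.15 against 0.01 over all genes tested. Called below additivity were 5 members, and 1 was called above it (of all genes tested 8.16% were called, 3.55% lower and 4.61% higher). The Scrambled libraries enter both single changes, so an error in their level moves this value for every gene.

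CDKN1A was furthest past the threshold. Its single changes summed to 1.46, a 2.76-fold rise, and the double knockdown gave 0.67, a 1.59-fold rise, with a shortfall of -0.79 ± 0.08 (95% interval -0.97 to -0.61, adjusted p = 1.3e-05). GDF15 had a sum of 2.58 and a double knockdown change of 1.46 (-1.12 ± 0.17, adjusted p = 0.0016). SESN2 had 1.63 and 1.13 (-0.50 ± 0.12, adjusted p = 0.014), and CMBL 0.66 and 0.28 (-0.38 ± 0.08, adjusted p = 0.0056). For these 4 genes the call held on leaving out any 1 of the 12 libraries.

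BBC3 (-0.63 ± 0.18, adjusted p = 0.047) was called below additivity and PMAIP1 above it (0.34 ± 0.10, adjusted p = 0.045), PMAIP1 being a gene that fell less in the double knockdown than its single changes summed to (-0.31 and -0.64). The BBC3 call was lost on leaving out any of 10 libraries (highest adjusted p = 0.112) and the PMAIP1 call on leaving out any of 11 (0.122), and both were lost with a replicate block. Without Scrambled replicate 3, 10 members were called below additivity: CDKN1A, GDF15, SESN2, CMBL, PLK3, GADD45A, XPC, MDM2, SESN1 and FDXR, and none above. The shares of all genes given above come from the fit to all libraries, so these 10 are not set against a background.

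By role, called departures from additivity were 1 of 5 arrest genes, 2 of 10 death genes in opposite directions, 0 of 4 repair genes, 0 of 3 feedback genes and 3 of 8 metabolism and stress genes. The medians were -0.30, -0.13, -0.09, -0.22 and -0.22. With 8.16% called over all genes tested, 0 calls among 3 or 4 genes say nothing about a role. Groups this small do not tell the roles apart. For repair genes the values lay between -0.24 and 0.05, and the intervals of DDB2 (-0.20 to 0.11), POLH (-0.15 to 0.25) and RRM2B (-0.33 to 0.06) included 0. XPC was at -0.24 (-0.40 to -0.09, adjusted p = 0.0503). Among genes whose single changes were opposed, BTG2 (sum 0.39, observed 0.31), DDB2 (-0.07 and -0.11), PHLDA3 (0.09 and -0.06) and FDXR (0.08 and -0.10) were not called, with intervals that ran between -0.36 and 0.11 and included 0. SESN1, the fifth such gene, had a sum of 0.09 and an observed change of -0.18. Its difference of -0.27 had an interval of -0.48 to -0.05 and was not called after adjustment over all genes (adjusted p = 0.126).

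**Figure D4:**
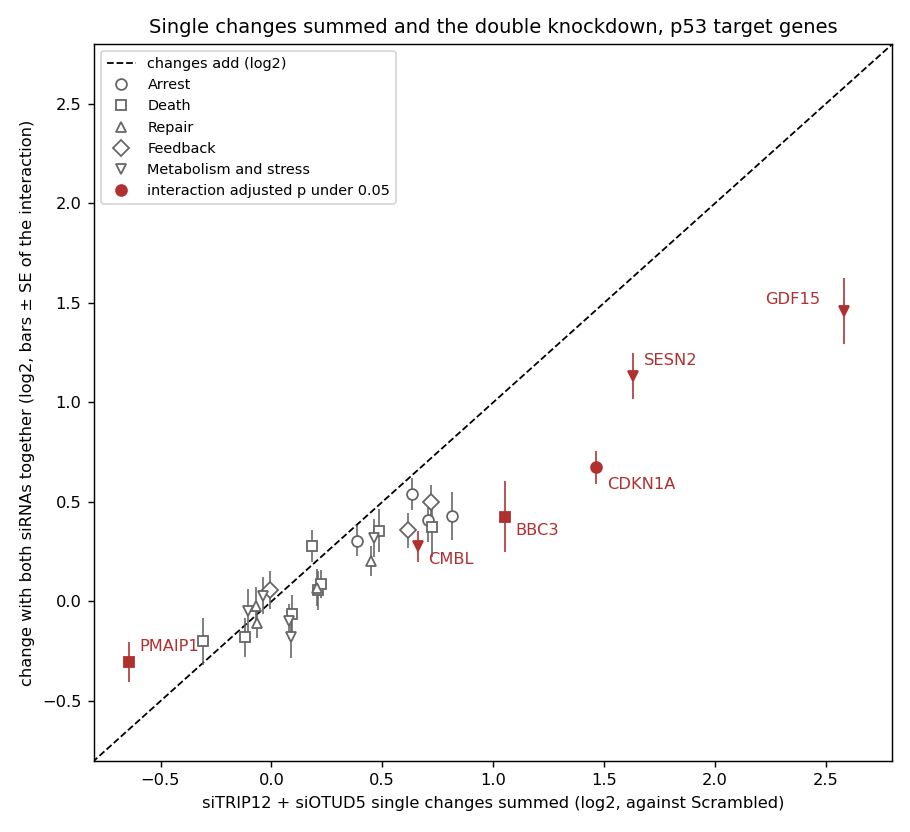
Log2 change against Scrambled with both siRNAs (y axis, bars ± SE of the interaction) plotted against the sum of the single siTRIP12 and siOTUD5 changes (x axis) for the 30 tested p53 targets, by role; the dashed line marks changes that add. The 6 genes with an interaction at an adjusted p under 0.05 are filled, and 5 of them, led by GDF15 and CDKN1A, lie below the line.

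Other genes of the p53 pathway were taken from 3 lists that do not contain the members. Of 19 tested p53 regulators, 1 rose and 3 fell in siTRIP12, 2 rose and 2 fell in siOTUD5, and 2 rose and 1 fell in the double knockdown (medians 0.04, 0.08 and 0.07). Over all genes tested 31.9%, 23.2% and 30.9% were called in these comparisons, so the regulators were not called in greater proportion. PPP1R13L, which encodes the p53 inhibitor iASPP, fell in siTRIP12 (-0.45 ± 0.08, adjusted p = 2.5e-04) and rose in siOTUD5 (0.46 ± 0.08, adjusted p = 3.8e-04). KAT5, an acetyltransferase of p53, rose in all 3 (0.39 ± 0.07, 0.28 ± 0.07 and 0.30 ± 0.07). The kinase gene ATR fell in all 3 (-0.24 ± 0.07, -0.26 ± 0.07 and -0.23 ± 0.07). The checkpoint kinase genes CHEK1 (-0.27 ± 0.07 in siTRIP12) and CHEK2 (-0.36 ± 0.07 in siOTUD5) fell, and PPP1R13B, which encodes the p53 cofactor ASPP1, rose in the double knockdown (0.24 ± 0.07).

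Of 35 tested further p53 targets, 4 rose and 6 fell in siTRIP12, 9 rose and 3 fell in siOTUD5, and 8 rose and 5 fell in the double knockdown, with medians of 0.03, 0.13 and 0.05. All genes tested were called higher in 14.5%, 11.4% and 14.7% and lower in 17.4%, 11.9% and 16.2% in the same order. The rises in siOTUD5 included E2F7, a cell-cycle repressor (0.53 ± 0.07, adjusted p = 3.2e-05), PLXNB2 (0.56 ± 0.09) and FBXO22 (0.31 ± 0.05). CD82, a tetraspanin, fell in all 3 (-1.43 ± 0.06, -0.60 ± 0.06 and -0.87 ± 0.06). In siTRIP12 ABHD4 rose (0.63 ± 0.08), and the autophagy regulator DRAM1 (-0.45 ± 0.06) and the growth factor gene TGFA (-0.59 ± 0.08) fell. STEAP3, a metalloreductase, fell in the double knockdown (-0.40 ± 0.07).

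Of 26 cell-cycle genes that p21 is known to lower through the DREAM complex, 2 rose and 10 fell in siTRIP12, 1 rose and 8 fell in siOTUD5, and 2 rose and 8 fell in the double knockdown (medians -0.08, -0.14 and -0.05). The shares of all genes tested that were called lower were 17.4%, 11.9% and 16.2%. The replication helicase subunit MCM3 fell in all 3 (-0.34 ± 0.05, -0.28 ± 0.05 and -0.23 ± 0.05). In siTRIP12 MCM2 (-0.35 ± 0.05) and MCM6 (-0.46 ± 0.07), subunits of the same helicase, fell. MYBL2, a cell-cycle transcription factor, fell in siOTUD5 (-0.40 ± 0.05), and CCNB1, which encodes cyclin B1, fell there (-0.40 ± 0.06) and in the double knockdown (-0.39 ± 0.06). CCNA2, which encodes cyclin A2, rose in all 3 (0.57 ± 0.05, 0.37 ± 0.05 and 0.55 ± 0.05). FANCD2, a DNA crosslink repair gene, rose in siTRIP12 (0.24 ± 0.06) and fell in siOTUD5 (-0.85 ± 0.06) and in the double knockdown (-0.46 ± 0.06).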

How the data were processed

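Whole-number read counts per gene and library, made by the authors, were deposited with FPKM and TPM values. Per the submitters' processing notes HISAT2, StringTie and GRCh38 were used, with no versions or roles; aligner settings and strand use are not given in the sources used here. The deposited TPM values, length-corrected by the authors, were used for levels between genes, and the FPKM values were not used. Libraries were stranded poly(A) libraries, per the labels.

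The count test was edgeR's robust quasi-likelihood test (edgeR 4.0.16, R 4.3.3) after TMM scaling. filterByExpr kept 16283 of 46427 genes. Group means were estimated from the 12 libraries together, which left 8 residual degrees of freedom, and the common biological coefficient of variation was 0.0822. Benjamini-Hochberg adjustment ran over all genes tested, and adjusted p under 0.05 was called "rose" or "fell". Scripts were tested on simulated data. Intervals cover the spread between libraries.

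All 31 members, TRIP12, OTUD5 and up to 4 called genes with the smallest p per pathway list and comparison with Scrambled are named, and 1 further gene is not reported here. Members and lists were chosen with earlier results of these data known. Promoter sequences and coordinates are from RefSeq (GRCh38.p14), exon overlaps from GENCODE. No 2 libraries held identical counts. Alternatives were DESeq2 size factors, upper-quartile scaling, omitting the filter, requiring on average 50 reads, a replicate block, glmTreat at a fold of 1.2, the Wald test of DESeq2 1.42.0, limma-voom (limma 3.58.1), only the groups compared, and each library left out.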

Additional observations from a re-analysis of the deposited data

Results flagged for a closer look

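By the interaction test, the change with siOTUD5 differed between siTRIP12-treated and Scrambled cells in 6 of the 30 p53 targets tested. Of all genes tested, 8.16% were called. The difference, taken as the siOTUD5 change in siTRIP12 cells minus that in Scrambled cells on the log2 scale, was -0.79 for CDKN1A, -0.63 for BBC3, 0.34 for PMAIP1, -0.50 for SESN2, -1.12 for GDF15 and -0.38 for CMBL. The BBC3 call was lost without any of 10 of the 12 libraries, and the PMAIP1 call without any of 11. Those of CDKN1A, SESN2, GDF15 and CMBL held whichever library was left out.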

How the results depend on the processing

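Of 3750 log2 changes of single members recomputed under the alternatives, 3543 stayed on the same side of the threshold, 155 lost their call, 52 gained one and none of the called ones changed sign. Against a fold of 1.2 (glmTreat), which asks for more than any change, the members that rose and fell numbered 6 and 1 in siTRIP12, 7 and 0 in siOTUD5, 5 and 0 in the double knockdown, 2 and 1 for the double knockdown against siTRIP12, 0 and 0 against siOTUD5, and 0 and 2 for the interaction. Upper-quartile scaling left 3 falls in siTRIP12 and 0 members above additivity. With no filter, 1 member rose against siOTUD5 and 0 were called above additivity. DESeq2 called 2 falls in the double knockdown and 8 members below additivity, fitting only the groups compared gave 4 rises against siOTUD5, and limma-voom called 0 above additivity. The cause of these shifts was not tested. Shares of all genes called under each alternative, or with a library left out, are not given here. The counts in this section are therefore not set against a background.

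With a replicate block 0 members were called above additivity, and the block moved no other count by more than 1.5 times. Same-numbered libraries did not deviate together (correlations from -0.073 to 0.047), so no shared effect of the replicate number was seen. The labels do not say whether same-numbered libraries were prepared together, and these correlations cannot decide it. Leaving out each library in turn gave 8 to 10 rises and 3 to 7 falls in siTRIP12, 17 to 22 and 1 in siOTUD5, and 15 to 17 and 1 to 4 in the double knockdown. It gave 3 to 10 rises and 1 fall against siTRIP12, 1 to 4 and 5 to 8 against siOTUD5, and 0 to 1 above and 4 to 10 below additivity. A missed call at this depth and n does not show that a gene did not change.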
